A study of Mus musculus with 4 samples.

Results

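The 6 genes of fructose uptake and breakdown were followed across 4 pools of mouse liver RNA: the sugar transporter genes Slc2a2, Slc2a5 and Slc2a8, the kinase genes Khk and Tkfc, and the glycerate kinase gene Glyctk. They are 6 of the 22180 genes named by the array. A gene was taken where a probe set (the group of probes that gives 1 value) carried its symbol and no other, and each of the 6 had 1 such probe set. The genes are those of 1 pathway, listed with earlier results of these data known.

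Fructose enters hepatocytes through facilitative transporters, mainly GLUT2 (Slc2a2), which carries glucose and fructose, while GLUT5 (Slc2a5) is the fructose transporter best known from the small intestine and GLUT8 (Slc2a8) is a hexose transporter found mostly on internal membranes. Ketohexokinase (Khk) then makes fructose-1-phosphate, which is split, and triokinase (Tkfc) phosphorylates the glyceraldehyde that is released. Glycerate kinase (Glyctk) returns glycerate, formed when glyceraldehyde is oxidised instead, to glycolysis. ChREBP, the product of Mlxipl, is a factor that activates genes when sugar supply is high and binds DNA at paired E-box-like half-sites.

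The mice were C57BL/6 and older than 2 months, and both sexes went into every pool, in proportions that the sources used here do not give. The 4 pools came from 6 Chrebp-null mice after 2 weeks on a diet of 70% fructose, 4 wild-type (WT) mice after 2 weeks on it, 7 WT mice after 3 weeks on it and 7 WT mice on regular chow. The sources used here do not say how the null allele was made or in which cells Chrebp is missing. The design names 2 comparisons with no array in common: the null pool over the 2-week WT pool (the null comparison) and the 3-week WT pool over the chow pool (the diet comparison). Each pool was read on 1 Affymetrix array, so differences have no check by replicates, none was tested, and the spread between mice is not known.

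All values are log2 levels after RMA (background subtraction, normalization and summary by probe set), and all differences are log2 differences between 2 arrays. A gene was counted in a comparison when the higher array stood at or above a floor of 3.52, the median of all gene means, and was called when the difference reached 2-fold. All 6 genes stood above the floor on all 4 arrays. Array medians lay between 3.11 and 3.17 and Pearson's r between arrays between 0.974 and 0.982. The 2-week WT array had 10869 genes above the floor and the others 11209 to 11239. Mlxipl read 8.09 in the null pool, against 9.83 in the 2-week WT pool, 9.64 in the 3-week WT pool and 9.25 in the chow pool, the direction of the genotype label. The sources used here do not say which part of Mlxipl its probe set covers. All 8 hepatocyte markers, among them Alb, Ttr and Apoa1, were above the floor in every pool. The 4 markers of kidney tubule, the 4 of neutrophils and the 3 each of adipose tissue and pancreas with a value were below it in every pool. Of the 6 enterocyte markers 1, Fabp2, which hepatocytes also express, was above it.

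Khk and Tkfc are the 2 of the 6 genes whose levels differed most between pools, and their promoters are shown for that reason, with that of the hepatocyte transporter gene Slc2a2 for contrast. Each line gives the 250 bases before the transcription start on the gene's strand, from RefSeq (GRCm38.p6), and capitals mark the motif matches described next. The Khk stretch lies at chr5:30921309-30921558 on the plus strand, that of Tkfc at chr19:10604259-10604508 on the minus strand and that of Slc2a2 at chr3:28697653-28697902 on the plus strand.
Khk: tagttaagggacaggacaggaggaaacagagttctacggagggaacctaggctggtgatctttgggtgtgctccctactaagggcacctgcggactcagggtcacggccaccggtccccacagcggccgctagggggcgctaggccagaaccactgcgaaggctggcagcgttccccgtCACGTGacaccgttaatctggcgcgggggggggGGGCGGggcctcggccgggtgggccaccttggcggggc
Tkfc: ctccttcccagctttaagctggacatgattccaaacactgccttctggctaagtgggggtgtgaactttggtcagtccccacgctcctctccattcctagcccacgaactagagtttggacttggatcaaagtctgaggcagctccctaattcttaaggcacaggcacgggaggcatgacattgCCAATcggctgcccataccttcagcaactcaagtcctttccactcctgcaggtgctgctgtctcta
Slc2a2: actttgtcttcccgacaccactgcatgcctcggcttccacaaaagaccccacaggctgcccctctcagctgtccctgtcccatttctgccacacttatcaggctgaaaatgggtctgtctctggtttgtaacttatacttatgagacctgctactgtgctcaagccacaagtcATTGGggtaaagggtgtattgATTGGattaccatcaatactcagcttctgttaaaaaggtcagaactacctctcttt

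The search covered both strands of 300 bases, 250 before and 50 after the start, for all 6 genes. The E-box CACGTG occurred once in Khk, at positions -71 to -66, and in none of the other 5 genes. It occurred in 7.15% of the 32851 promoters in the table. A pair of CACGTG with 5 bases between them occurred in none of the 6, and in 0 of the 32851 promoters. As no promoter held that exact string, its absence here does not tell whether looser paired half-sites are present, which were not searched. The GC-box GGGCGG, found in 35.7% of promoters, stood once in Khk and 3 times in Slc2a5. CCAAT, found in 37.4%, stood once each in Tkfc and Glyctk, 2 times in Slc2a2 (as its reverse ATTGG) and 5 times in Slc2a8, where a forward and a reverse match overlapped. TATAAA (13.6% of promoters), the HNF1 motif (GTTAAT and ATTAAC with 1 base between, 0.00913%) and the direct repeat of AGGTCA with 1 base between (0.0396%) had no match in the 6 genes. GC content was 65.7% in Khk, 54.7% in Tkfc and 48% in Slc2a2, beside a median of 52.7% over all promoters. A match describes these letters only and shows no binding.

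Among the kinases, Khk was lower in the Chrebp-null pool than in WT pools and higher in the fructose-fed WT livers than on chow. Khk (probe set 17435934) read 9.11 in the null pool, 10.76 in the 2-week WT pool, 10.51 in the 3-week WT pool and 9.91 in the chow pool. The null pool was lowest and both fructose-fed WT pools stood above chow. After 2 weeks of fructose the null pool differed from WT by -1.65, a ratio of 3.14, the 48th lowest difference of 11631 genes. The 3-week WT pool was above chow by 0.60, a ratio of 1.52, under 2-fold. The probe set is summarised per gene, so the A and C splice forms of ketohexokinase, of which C is the form of the liver, were not told apart.

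Tkfc, whose product acts downstream of that of Khk, showed the same order of pools. Tkfc (probe set 17362717) read 8.55 in the null pool, 10.39 in the 2-week WT pool, 9.89 in the 3-week WT pool and 9.62 in the chow pool. The null pool differed from the 2-week WT pool by -1.84, a ratio of 3.58, the 42nd lowest of 11631 genes. Over chow, the 3-week WT pool was higher by 0.27, a ratio of 1.20, and the 2-week WT pool by 0.77, a ratio of 1.70. The gap between the WT fructose pools was thus 0.50 for Tkfc and 0.25 for Khk, and in both genes the 2-week pool was the higher. In bulk RNA fewer cells of a type and less RNA per cell cannot be told apart.

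Both kinase genes also read lower in the null pool than in the WT pool on regular chow. The difference of the null pool from chow was -1.07 for Tkfc, a ratio of 2.10, and -0.80 for Khk, a ratio of 1.74. The null and chow pools differ in both genotype and diet, and the parts of these cannot be told apart in that pair. Against the 3-week WT pool the null pool stood at -1.40 for Khk and -1.34 for Tkfc. These differences share the null array with the null comparison, and the chow or the 3-week WT array with the diet comparison, so they are the same readings set side by side and not further checks.

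**Figure D1:**
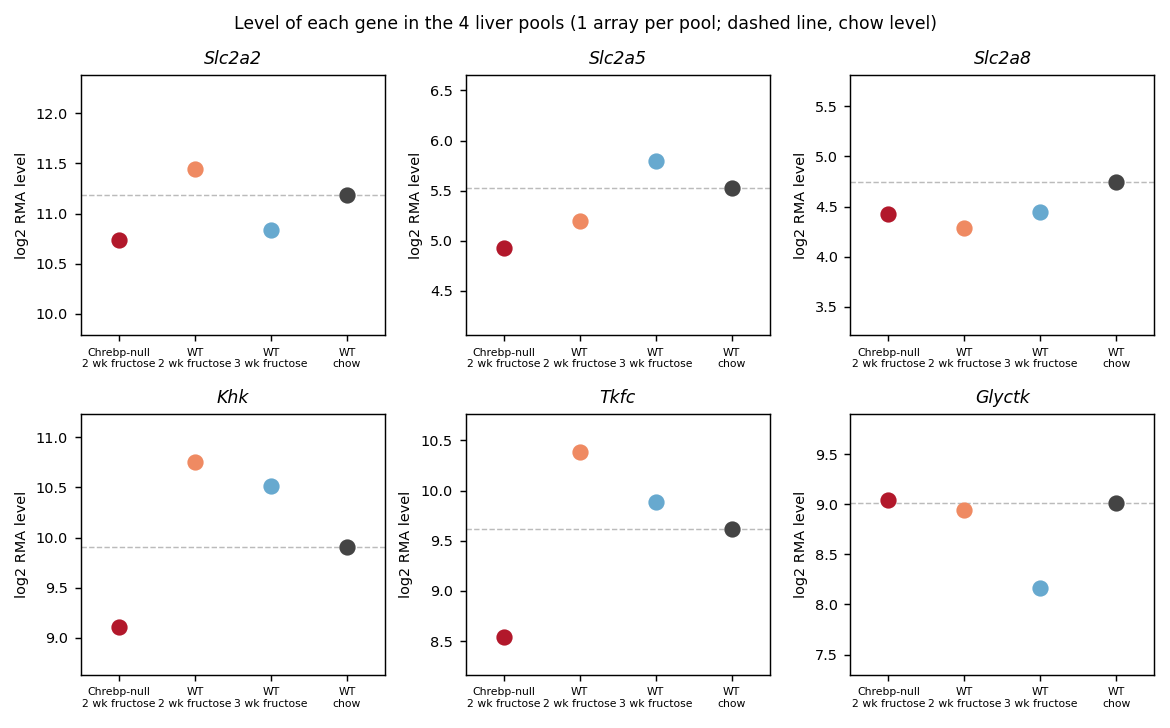
Log2 RMA level (y axis, each panel spanning the same number of log2 units) of the 6 genes in the 4 liver pools (x axis), 1 point per array, with the chow level as a dashed line and no error bars because each pool has 1 array. Khk and Tkfc are lowest in the Chrebp-null pool, at 9.11 and 8.55, and Glyctk is lowest in the 3-week WT pool, at 8.16.

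Glyctk, the side branch through glycerate, did not follow the other kinases. Glyctk (probe set 17530623) read 9.04 in the null pool, 8.94 in the 2-week WT pool, 8.16 in the 3-week WT pool and 9.01 in the chow pool. The other 3 pools lay within 0.10 of each other and the 3-week WT pool stood apart below them. The null pool differed from the 2-week WT pool by 0.10, while the 3-week WT pool differed from chow by -0.85, a ratio of 1.80. That is the 242nd lowest difference of 11717 genes, and still under 2-fold. The 2-week WT pool stood at -0.07 from chow, so the lower level rested on 1 array.

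Of the 3 transporters, Slc2a2 had the largest difference between null and WT livers at 2 weeks. Slc2a2 (probe set 17396479) read 10.73 in the null pool, 11.44 in the 2-week WT pool, 10.84 in the 3-week WT pool and 11.18 in the chow pool. The null pool differed from the 2-week WT pool by -0.71, a ratio of 1.63, and from the 3-week WT pool by -0.11. The WT fructose pools differed from each other by -0.60 (3 weeks minus 2 weeks), nearly as much as the null and WT pools at 2 weeks. The 3-week WT pool stood at -0.34 and the 2-week WT pool at 0.26 from chow, in opposite directions.

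Slc2a5 was also lowest in the null pool, but its difference from WT at 2 weeks was smaller than that between the WT fructose pools. Slc2a5 (probe set 17421875) read 4.92 in the null pool, 5.20 in the 2-week WT pool, 5.79 in the 3-week WT pool and 5.53 in the chow pool. The null pool differed from the 2-week WT pool by -0.28 and from the 3-week WT pool by -0.87, and the WT fructose pools differed by 0.59 (3 weeks minus 2 weeks). Over chow the 3-week WT pool stood at 0.26 and the 2-week WT pool at -0.33.

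Slc2a8 had the narrowest range of the 6 genes, 0.47 over the 4 arrays. Slc2a8 (probe set 17384082) read 4.43 in the null pool, 4.28 in the 2-week WT pool, 4.44 in the 3-week WT pool and 4.75 in the chow pool. The 3 fructose-fed pools lay below chow, by -0.31 in the 3-week WT pool, -0.47 in the 2-week WT pool and -0.32 in the null pool, with the chow array in each difference. The null pool differed from the 2-week WT pool by 0.15, a sign that turned (-0.01) once its trend with level was removed.

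Over the 6 genes, 2 (Khk and Tkfc) were lower by 2-fold or more in the null pool than in the 2-week WT pool, and none was higher by as much. Among all 11631 genes assessed, 1.43% were lower by that much and 2.03% higher. The median of the 6 was -0.49, beside 0.10 over all genes. In the 3-week WT pool over chow none of the 6 reached 2-fold, with 0.640% of 11717 genes higher and 1.16% lower by that much. The median of the 6 was -0.02, beside -0.05 over all genes. Removing the trend with level shifted the median of all genes in the null comparison by -0.10 and turned the split of calls to 140 higher and 225 lower, against 236 and 166 as deposited. Khk and Tkfc then stood at -1.67 and -1.87. For the diet comparison the split was 93 higher and 105 lower, against 75 and 136.

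The remaining pairs of arrays share an array with a named comparison. In the null pool over chow 1 of the 6 genes (Tkfc) was called lower, beside 1.43% of all genes, and none higher, beside 1.66%. In the null pool over the 3-week WT pool 2 of the 6 (Khk and Tkfc) were called lower, beside 1.95% of all genes, and none higher, beside 3.38%. In the 2-week WT pool over chow none of the 6 was called, with 0.783% of genes higher and 1.41% lower. Between the WT fructose pools none of the 6 was called either, with 1.27% of genes higher and 1.10% lower at 3 weeks than at 2 weeks. The central 95% of all genes lay between -0.80 and 0.83 in that last pair, which differs in weeks of feeding and in mice, and the differences of all 6 genes fell inside it. In the null comparison that range was -0.74 to 0.94, with Khk and Tkfc below it. In the diet comparison it was -0.81 to 0.67, with Glyctk below it, and in the 2-week WT pool over chow it was -0.82 to 0.67, with Khk and Tkfc above it. In the null pool over chow (-0.78 to 0.88) Khk and Tkfc lay below the range, and in the null pool over the 3-week WT pool (-0.85 to 1.09) Khk, Tkfc and Slc2a5 did.

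**Figure D2:**
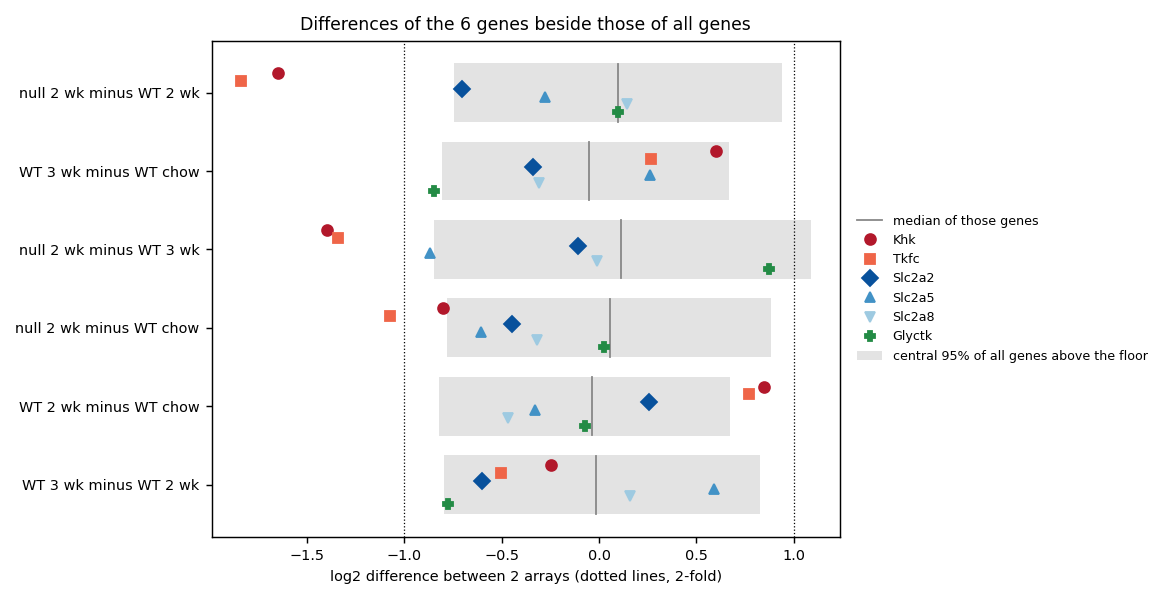
Log2 differences (x axis) of the 6 genes in each pair of arrays (rows), with grey bars for the central 95% of all genes above the floor, a grey line at their median and dotted lines at 2-fold. Khk and Tkfc lie left of the 2-fold line in the null pool minus the 2-week WT pool, at -1.65 and -1.84, and no gene passes 2-fold in the 3-week WT pool minus chow.

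Sex-linked and male-biased liver genes also differed between the null and WT pools. Xist, transcribed from the inactive X chromosome, read 7.04 in the null pool, against 8.56 in the 2-week WT pool, 8.77 in the 3-week WT pool and 8.84 in the chow pool. The Y-linked Eif2s3y read 7.34 in the null pool, against 6.51 in the 2-week WT pool, 6.00 in the 3-week WT pool and 6.12 in the chow pool. Kdm5d and Uty, also Y-linked, were higher in the null pool than in the 2-week WT pool by 0.76 and 0.53. Of the 6 male-biased liver genes with a value, the median level was 4.17 in the null pool, against 8.55, 9.17 and 8.67 in the 2-week WT, 3-week WT and chow pools. Of the 7 female-biased ones it was 3.33 in the null pool, against 3.85, 8.02 and 7.62 in the 2-week WT, 3-week WT and chow pools, so that both 2-week pools read low. The part of sex makeup in the differences of Khk, Tkfc and the other genes was not tested. The scavenger receptor gene Marco stood 2.66 higher in the null pool than in the 2-week WT pool, while the other 4 macrophage markers lay between -0.45 and 0.12. The 4 endothelial markers had a median of -0.18 in the null comparison, with Lyve1 at -1.01 and the other 3 between -0.20 and 0.04, and a median of 0.42 in the diet comparison. In the null comparison the 5 periportal hepatocyte markers with a value had a median of -0.09 and the 6 pericentral ones 0.30. In the diet comparison these medians were -0.17 and -0.33. The part of other cell types or liver zones in these values was not tested. The summed log2 level of the 8 hepatocyte markers was 87.6 in the null pool, against 87.9 in the 2-week WT, 85.9 in the 3-week WT and 86.6 in the chow pool. Much of the spread of this sum came from Ass1, whose range of 1.47 was the widest of the 8, with Hnf4a next at 0.38. Ass1 read 5.78 in the null and 5.86 in the 2-week WT pool, against 4.54 in the 3-week WT and 4.39 in the chow pool.

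Likeness of profile was measured as the root mean square distance between log2 levels over the 4 arrays, each gene centred on its own mean. It was computed for Khk and Tkfc, the genes that spanned at least 2-fold over the arrays, against 10442 genes above the floor. The genes nearest to Khk were Tmie, a membrane protein gene known from the inner ear, at 0.11, Acacb, an acetyl-CoA carboxylase, at 0.11, Mlxipl at 0.13, the pseudogene Cyp2d37-ps at 0.14 and Tkfc at 0.14. Those nearest to Tkfc were Mlxipl at 0.11, Khk at 0.14, the Krüppel-like factor gene Klf10 at 0.14, Cyp2d37-ps at 0.17 and Tmie at 0.18. Mlxipl is the gene named by the null label, so its level in the null pool is not a reading apart from the genotype. Khk and Tkfc thus stood among each other's nearest 5. The other 4 genes lay between 0.49 and 0.87 from both. Cyp2d genes have similar copies that array probes may not separate, so the value of Cyp2d37-ps is uncertain. The 4 arrays are few points for such a measure: with Pearson's r in its place, 0 of the 5 nearest genes were shared with these lists for either gene.

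**Figure D3:**
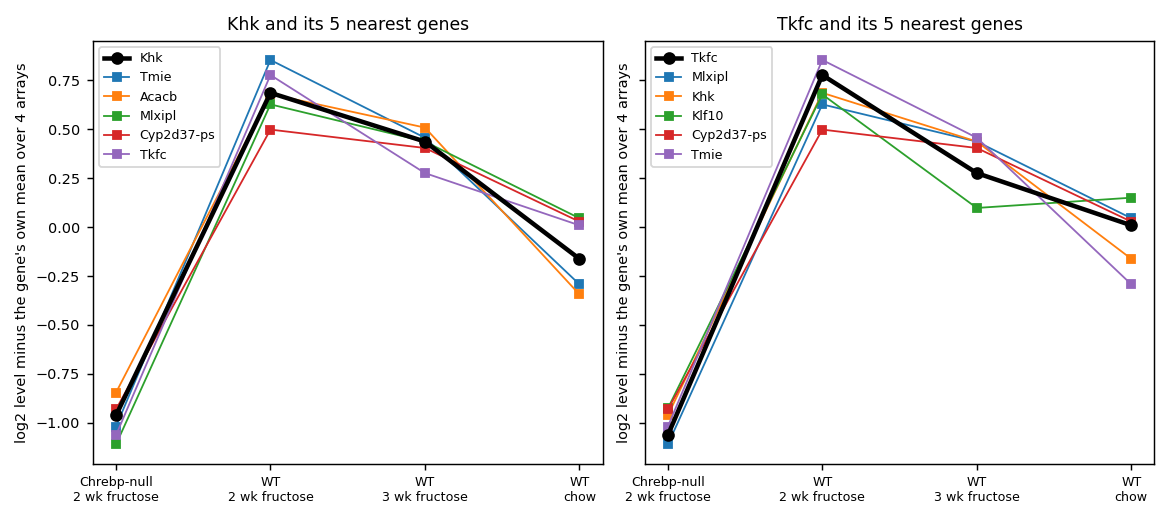
Log2 level minus each gene's own mean over the 4 arrays (y axis) by pool (x axis) for Khk (left) and Tkfc (right) in black with the 5 genes of most similar profile in colour, lines joining the pools only to guide the eye. The profiles are lowest in the Chrebp-null pool and highest in the 2-week WT pool, and Khk and Tkfc are 0.14 apart.

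The enzymes around fructolysis were read from 8 lists with 63 entries, of which 52 had a value under 1 symbol, and genes without one were not analysed here. In the null pool over the 2-week WT pool 40 of them were above the floor, of which 2 were called higher and 4 called lower, beside 2.03% and 1.43% of all genes. In the 3-week WT pool over chow 38 were above the floor and none reached 2-fold, beside 0.640% of all genes higher and 1.16% lower. Neither of the 2 polyol route genes was analysed here.

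Lower glycolysis and glucose output held 3 of the 4 lower genes, out of 8 above the floor. Pklr, pyruvate kinase of the liver, read 8.50 in the null pool, against 11.22 in the 2-week WT pool, 10.41 in the 3-week WT pool and 9.90 on chow, a difference of -2.72 between the null and 2-week WT pools. G6pc, glucose-6-phosphatase, stood at -2.33 and Fbp1, fructose bisphosphatase, at -1.18 between the same pools. The list median was -0.46, beside 0.10 over all genes, and -0.06 against the 3-week WT pool. Pklr, G6pc and Fbp1 stood 0.51, 0.70 and 0.23 above chow in the 3-week WT pool, under 2-fold. In the 2-week WT pool they stood 1.32, 0.76 and 0.22 above chow. There Pklr passed 2-fold, beside 0.783% of all genes higher by that much.

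The enzymes that take the trioses onward did not show the difference seen in Khk and Tkfc. Of the 6 triose and glycerol genes above the floor none reached 2-fold in either named comparison, and the medians were 0.07 in the null comparison and -0.26 in the diet comparison. Tpi1, triose phosphate isomerase, stood at 0.34 in both. Gpd1, glycerol-3-phosphate dehydrogenase, was at -0.71 in the null pool over the 2-week WT pool and at -0.52 in the 3-week WT pool over chow. Aldh2 and Aldh1a1, aldehyde dehydrogenases, stood at -0.85 and -0.95 in the 3-week WT pool over chow, beside the -0.85 of Glyctk. Aldh3a2, the other aldehyde dehydrogenase listed, stood at 0.04 in that pair, and Adh1, an alcohol dehydrogenase, at -0.002. In the 2-week WT pool over chow Aldh2 stood at -0.05 and Aldh1a1 at -0.60.

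Among the other sugar transporters, Slc2a1, encoding GLUT1, read 7.42 in the null pool, against 6.39 in the 2-week WT pool, 6.67 in the 3-week WT pool and 7.06 on chow. It was higher in the null pool than in the 2-week WT pool by 1.03, opposite in sign to Slc2a2, and by 0.75 against the 3-week WT pool. Slc2a9, a urate transporter, stood at -0.91 in the 3-week WT pool over chow and at -0.30 in the null pool over the 2-week WT pool. Of the other 7 facilitative transporters 6, Slc2a7 among them, were below the floor on all 4 arrays, and Slc2a6 lay within 0.01 between the null and 2-week WT pools. Slc5a1, a sodium-coupled glucose transporter, read 2.97 in the null pool, 4.42 in the 2-week WT pool, 3.02 in the 3-week WT pool and 3.21 on chow, and the 2-week WT level was the one above the floor. Its difference of -1.45 in the null comparison shrinks to -0.89, under 2-fold, when the null level is replaced by the floor.

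Among hexose kinases other than Khk and the genes of glycerate, serine and AMP breakdown, 1 gene (Psat1) was called in the null comparison and none in the diet comparison. Gckr, whose product is a regulatory protein that responds to fructose-1-phosphate, read 8.29 in the null pool, against 9.12 in the 2-week WT pool, 8.88 in the 3-week WT pool and 8.56 on chow. Its difference between the null and 2-week WT pools, -0.83, was the lowest of the 5 genes of its list above the floor, and none reached 2-fold. Psat1, a serine synthesis enzyme, read 4.35 in the null pool and below the floor elsewhere, so that its difference of 1.61 from the 2-week WT pool shrinks to 0.83 when the WT level is replaced by the floor. Agxt, which acts on glyoxylate, stood at 0.80 between the same pools and Hao1, a glycolate oxidase, at -0.52. The 2-week WT pool held the lowest Agxt level, 7.74, against 8.54 in the null, 8.58 in the 3-week WT and 9.28 in the chow pool. From chow the null pool thus stood at -0.74 for Agxt. Of the 9 genes of AMP breakdown and urate above the floor, none was called in either named comparison. Xdh, xanthine dehydrogenase, stood at 0.15 and Uox, urate oxidase, at -0.52 in the null comparison.

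**Figure D4:**
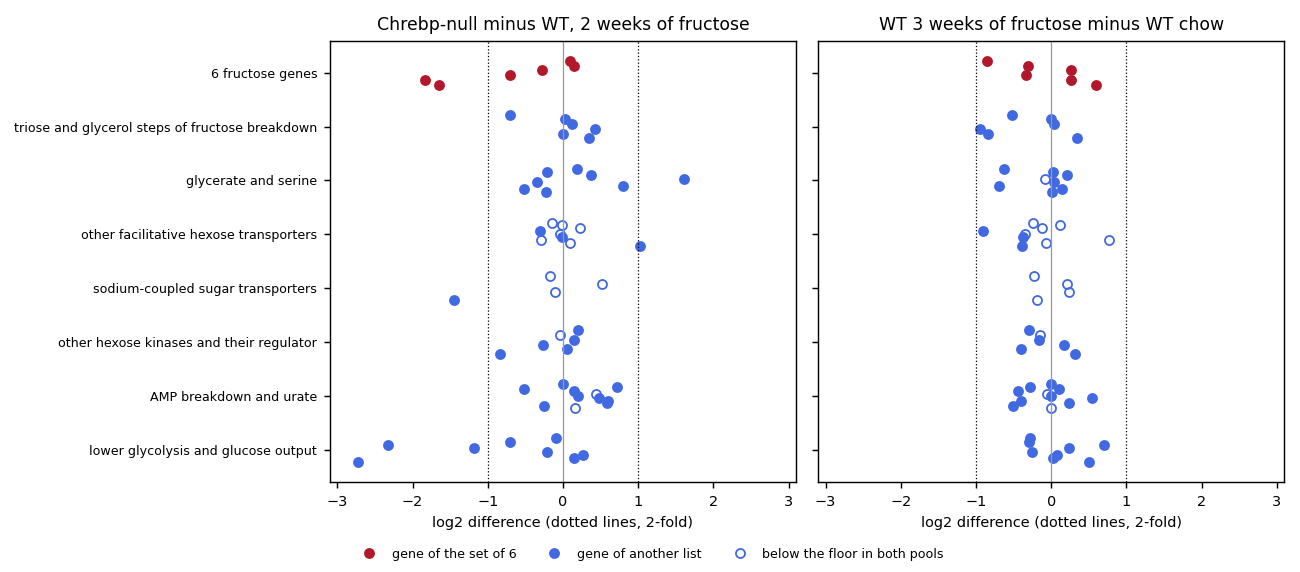
Log2 differences (x axis) of the 6 fructose genes (red) and of the other pathway lists (blue, 1 point per gene, open where both pools are below the floor) in the Chrebp-null pool minus the 2-week WT pool (left) and the 3-week WT pool minus chow (right), with dotted lines at 2-fold. The points left of 2-fold in the null comparison are Khk, Tkfc, Pklr, G6pc, Fbp1 and Slc5a1, and none passes 2-fold in the diet comparison.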

How the data were processed

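Liver RNA pooled by genotype and diet was labelled with the Affymetrix WT Plus kit, 1 array per pool, per the labels' protocols. As deposited by the authors, the file holds log2 values for 41345 probe sets, made with affy and RMA per the submitters' processing notes, with versions and joint normalization not given in the sources used here. RMA shrinks differences of dim genes most. Arrays give no read depth, and their number (1 per group) limits the precision.

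The platform annotation gave 1 symbol to 23521 probe sets and several to 1814. Entrez identifiers of 23328 matched the GRCm38.p6 table, all 6 members among them. Per gene the probe set with the highest mean was used. Groups came from the labels. Differences are between single arrays, with no test. A called difference is at least 2-fold with the higher array at or above the floor.

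The named genes are the 6 members, up to 6 per list by size of difference or known step, and the 5 nearest in profile, leaving out symbols without a described function. Members and lists were chosen with earlier results of these data known. Settings tried were a floor at the 75 percentile or none, median centring, quantile normalization, removal of the trend with level (lowess, fraction 0.3), the mean of probe sets, 1.5-fold and 3-fold thresholds, levels set at the floor, and other WT fructose arrays. The procedure was tested on simulated data. Promoters are RefSeq sequences, with all 6 genes matched. No protein sequence was used here. Python 3.11.15, numpy 2.4.6, pandas 2.3.3, statsmodels 0.14.6 and matplotlib 3.10.9 were used.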

Additional observations from a re-analysis of the deposited data

Results flagged for a closer look

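Slc2a2 and Slc2a5 stood on opposite sides of chow in the WT fructose pools. Over chow, Slc2a2 was at 0.26 in the 2-week pool and at -0.34 in the 3-week pool, while Slc2a5 was at -0.33 and 0.26. Each value is 1 array against the same chow array, and the difference between the 2 feeding times was not tested.

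Probe sets that carry a second symbol beside Glyctk were left out of the gene's value. One of them (17521130, Glyctk and D030055H07Rik) read 4.04 in the 3-week WT pool, 0.53 above its chow level of 3.51, while the probe set of Glyctk alone stood at -0.85 in the same comparison. The other (17521141, Glyctk and Mir135a-1) was below the floor in every pool and stood at 0.82 there. Which of the genes these signals come from was not tested.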

How the results depend on the processing

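Khk and Tkfc kept their direction in both named comparisons under every alternative run for them. Some of these could not change it. Each gene has 1 probe set and lay above the floor, so the mean of probe sets and levels set at the floor returned the same values. Median centring shifted all genes of a comparison by the same amount. In the null pool Khk lay between -1.67 and -1.40 and Tkfc between -1.87 and -1.34, both past 2-fold in each. Both were also called lower at 3-fold in the null comparison, beside 0.464% of all genes lower by that much and 0.395% higher. In the diet comparison Khk lay between 0.56 and 0.85 and Tkfc between 0.23 and 0.77, under 2-fold.

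The choice of WT fructose array moved the most values. With the 3-week pool as the WT side of the null comparison, Tkfc stood at -1.34, Slc2a2 at -0.11, Slc2a5 at -0.87 and Glyctk at 0.87. With the 2-week pool over chow, Tkfc stood at 0.77, Slc2a2 at 0.26, Slc2a5 at -0.33 and Glyctk at -0.072, and 3 list genes were called in place of 0 (1 with the mean of both WT arrays). With the floor at the 75 percentile 4 of the 6 genes were left, with a median of -1.18 in the null comparison, since Slc2a5 and Slc2a8 fell below it. At 1.5-fold 2 genes (Khk and Glyctk) were called in the diet comparison and 3 (with Slc2a2) in the null comparison, with 6 and 13 list genes. At that threshold 3.57% of all genes were higher and 7.05% lower in the diet comparison, and 9.16% and 3.79% in the null comparison. At 3-fold 3 list genes were called in the null comparison, beside 0.395% of all genes higher and 0.464% lower. Quantile normalization kept 3 of the 5 nearest genes of Khk.

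No paired analysis was possible because each group has 1 array. Pooled RNA on single arrays leaves the spread between mice unknown, and values near the floor, such as those of Slc2a8 and Slc5a1, have the least certain differences.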
